A study of Homo sapiens with 10 samples.

Results

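The genes described here are 10 imprinted genes of the human genome, MEG3, DLK1, H19, IGF2, CDKN1C, PEG3, PEG10, MEST, SNRPN and NNAT, chosen by name. An imprinted gene is transcribed mainly from the copy inherited from one parent, because the other copy carries DNA methylation or other silencing marks that were set in the egg or sperm. Many imprinted genes lie in clusters that share a control region, and several of them act in fetal growth, the cell cycle and the differentiation of neurons. Imprinting is known to drift in cultured human pluripotent stem cells, and MEG3, DLK1, H19 and IGF2 are among the genes used to follow it. Of the 10 genes, 8 had a row among the 30357 named genes of the tables used. MEG3 and H19, both long non-coding RNAs, are not analysed here. Total RNA abundance per gene was measured, with no separation of the parental alleles, so a level here says how much RNA a gene had and not from which copy it came.

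The RNA came from neurons grown for 60 days in vitro from RUES2, an established line of human embryonic stem cells. In all 10 libraries the line carried AVIL:tdTomato, a red fluorescent reporter at the gene for advillin, an actin-binding protein of sensory neurons. The groups were 3 libraries of a proprioceptor protocol (sense of body position), 3 of a mechanoreceptor protocol (touch) and 4 of a nociceptor protocol (pain), and the protocol was the one labelled difference between the groups. The labels call the libraries biological replicates of 1 line without saying whether each was a separate differentiation, or whether the cells were sorted, so the p-values below cover only how far these libraries differ, and part of that may be technical.

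The libraries held between 27891186 and 44541262 estimated counts on named genes. All 15 pan-neuronal marker genes were at 1 TPM or more in every library. TPM is a transcript abundance corrected for transcript length and scaled to the same total in each library, so levels of different genes can be compared on it. Proprioceptor library 1 stood apart from the others. Its scaling factor from TMM normalization was 0.778, against 0.943 to 1.10 in the others. It had 12066 named genes at 1 TPM or more, against 13174 to 14160 in the others. The libraries were not alike in other cell types within a protocol. COL1A1, a fibrillar collagen of mesenchymal cells, was at 1.77, 536 and 7.81 TPM in proprioceptor libraries 1 to 3, 3.26, 2.88 and 366 TPM in mechanoreceptor libraries 1 to 3, and 392, 506, 1984 and 17.0 TPM in nociceptor libraries 1 to 4. SOX10, a transcription factor of Schwann cells, was between 0.0136 and 7.91 TPM in the 5 libraries with the least COL1A1 and between 17.7 and 48.2 TPM in the other 5. The summed level of 16 mesenchymal genes was 471 to 1954 TPM in proprioceptor, 530 to 2098 TPM in mechanoreceptor and 1012 to 4343 TPM in nociceptor libraries. The low ends of these sums are mostly THY1, which was at 400 to 854 TPM in all 10 libraries. THY1 was at 432 TPM in proprioceptor library 3, 508 TPM in mechanoreceptor library 1 and 841 TPM in nociceptor library 4, the libraries with the lowest sums. For 12 glial genes the sum was 199 to 2613 TPM in proprioceptor, 461 to 2190 TPM in mechanoreceptor and 1011 to 5554 TPM in nociceptor libraries. NGFR made up much of the lowest of these, at 80.5 TPM in proprioceptor library 1, 423 TPM in mechanoreceptor library 1 and 610 TPM in nociceptor library 4. MYOD1, which defines skeletal muscle, was listed at 0 in 9 of the 10 libraries, and POU5F1, a pluripotency factor, was at 0.333 TPM or less in all 10. Other genes of these lists were on in some libraries, among them TNNT1, a troponin of slow muscle, at 1.76 to 12.8 TPM in all 10, the giant muscle protein gene TTN at up to 12.6 TPM in nociceptor library 4, and DPPA4, a pluripotency gene, at 3.96 to 5.21 TPM in nociceptor libraries 1 to 3 and 0.700 TPM or less elsewhere. The summed level was 3.76 to 19.9 TPM for 10 muscle genes and 0.646 to 11.7 TPM for 6 pluripotency genes. In bulk RNA, a smaller share of cells of a type and less RNA per cell cannot be told apart.

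Taking a gene as on at 1 TPM or more, the 8 quantified genes were on in 60 of 80 gene and library pairs, 18 of 24 in proprioceptor, 18 of 24 in mechanoreceptor and 24 of 32 in nociceptor libraries. CDKN1C, PEG10, MEST, SNRPN and NNAT were on in all 10 libraries, DLK1 was on in 8, IGF2 was on in 2 and PEG3 was off in all 10. Each proprioceptor and mechanoreceptor library had 6 of the 8 genes on, whereas nociceptor libraries 2 and 3 had 7 and nociceptor libraries 1 and 4 had 5. Across all named genes, 36.6% were on in every library, 15.7% were on in some and 47.7% were off in every one. Of 30 other imprinted genes with a row, 16 were on in every library, 7 in some and 7 in none.

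**Figure D1:**
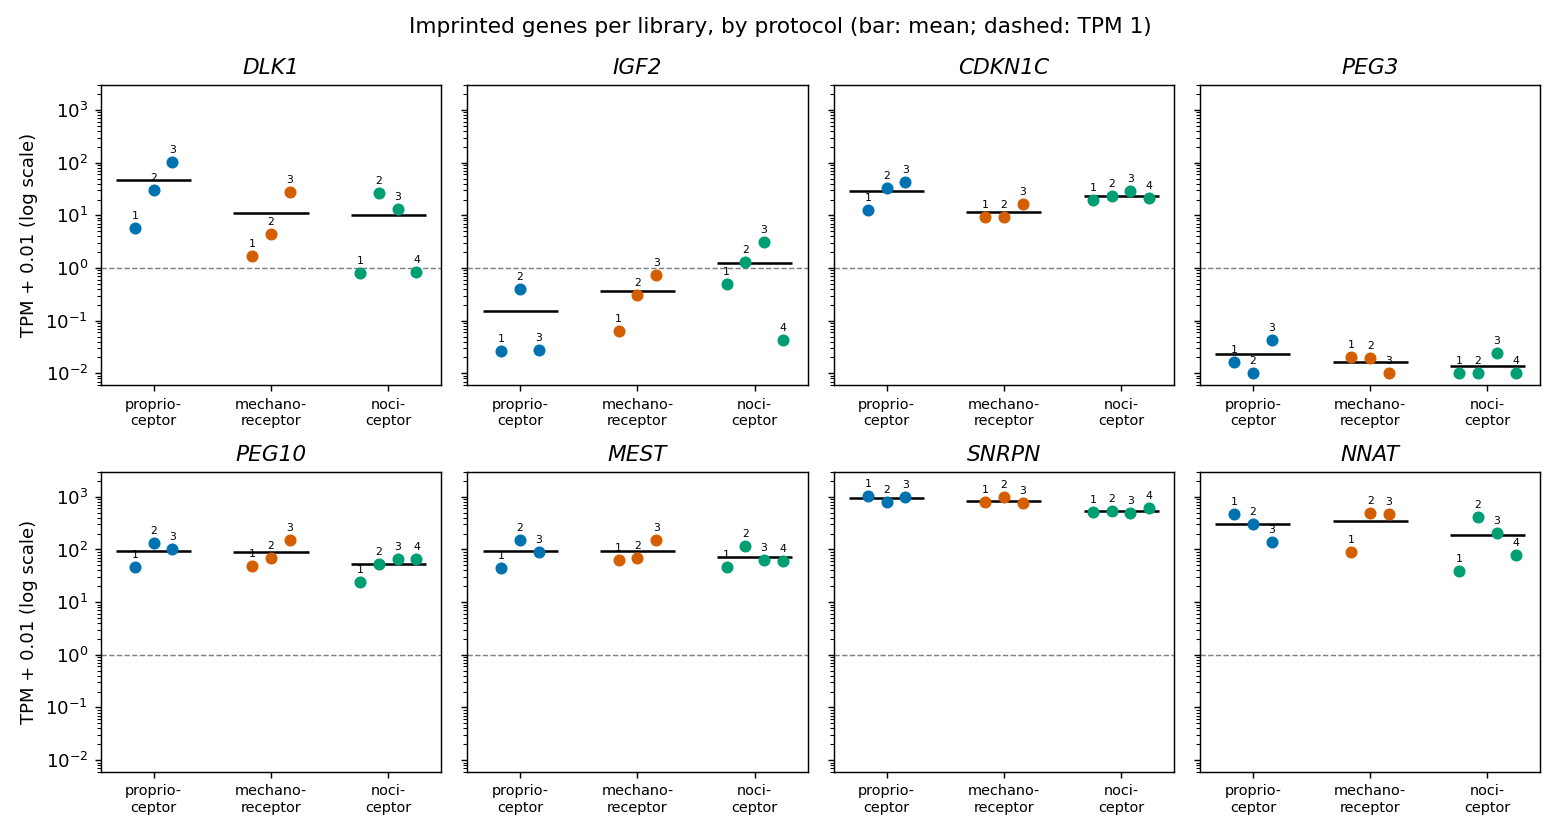
TPM plus 0.01 on a log axis for the 8 quantified imprinted genes, with 1 numbered point per library in the proprioceptor (blue), mechanoreceptor (orange) and nociceptor (green) protocols, a bar at each mean and a dashed line at 1 TPM. SNRPN stayed between 486 and 1037 TPM, DLK1 spread from 0.798 to 102 TPM, and PEG3 lay near the bottom of the axis in every library.

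No quantified imprinted gene passed the adjusted test for a difference between protocols. With edgeR's quasi-likelihood test and Benjamini-Hochberg adjustment at 0.05 over the 16130 genes tested, 0 of the 7 imprinted genes that passed the filter on low counts were called in any of the 3 contrasts, against a background of 0% of all tested genes in each. DESeq2 also called 0 of the 7, against 0.806% of all tested genes between mechanoreceptor and nociceptor libraries, 0.192% between proprioceptor and nociceptor libraries and 0% between proprioceptor and mechanoreceptor libraries. At an unadjusted edgeR p under 0.05, CDKN1C passed between mechanoreceptor and nociceptor libraries, where 8.18% of all tested genes did. IGF2 and SNRPN passed between proprioceptor and nociceptor libraries, where 6.19% of tested genes did, and CDKN1C passed between proprioceptor and mechanoreceptor libraries, where 1.49% did. In a test of any difference among the 3 protocols, edgeR and DESeq2 each called 0 of the 7, and DESeq2 called 0.49% of all tested genes. The remaining gene, PEG3, did not pass the filter.

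**Figure D2:**
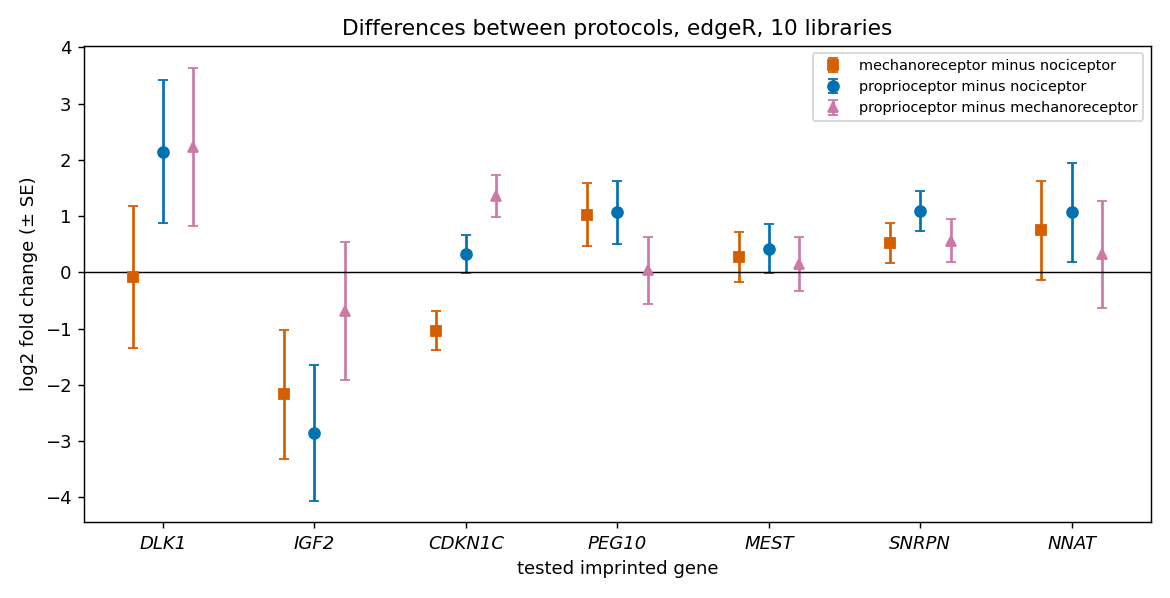
Log2 fold change from edgeR for the 7 tested imprinted genes in 3 contrasts, mechanoreceptor minus nociceptor (squares), proprioceptor minus nociceptor (circles) and proprioceptor minus mechanoreceptor (triangles), with bars of 1 standard error over 10 libraries. DLK1 and IGF2 have the widest bars, with standard errors between 1.14 and 1.41, and CDKN1C and SNRPN the narrowest, between 0.34 and 0.38.

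DLK1, a membrane-bound protein related to the Notch ligands that is released by cleavage and holds back the differentiation of fat cell precursors, varied most among the 8 genes on the log2(TPM + 1) scale. It is paternally expressed and lies at chromosome 14:100726892-100738224 in GRCh38.p14, 87.9 kb from the maternally expressed MEG3. DLK1 was at 5.71, 30.3 and 102 TPM in proprioceptor libraries 1 to 3, 1.71, 4.37 and 27.2 TPM in mechanoreceptor libraries 1 to 3, and 0.798, 26.3, 13.5 and 0.833 TPM in nociceptor libraries 1 to 4. High and low libraries occurred within each protocol, and the 3 protocols overlapped. The highest library stood 128-fold above the lowest, on estimated counts between 25 and 4120. The mean was 46.1 ± 50.2 TPM in proprioceptor libraries (SD, n = 3), 11.1 ± 14.02 TPM in mechanoreceptor libraries (n = 3) and 10.4 ± 12.2 TPM in nociceptor libraries (n = 4). Its within-protocol standard deviation of log2 CPM (counts scaled to the library total after TMM normalization) was 2.17, larger than that of 97.6% of tested genes, whose median was 0.58. The log2 fold change of proprioceptor over nociceptor libraries was 2.15 ± 1.27 (SE; edgeR adjusted p = 0.666) and became 0.87 without proprioceptor library 3, 3.26 without nociceptor library 2 and 4.53 with log2 COL1A1 as a covariate. Over mechanoreceptor libraries it was 2.23 ± 1.41 (adjusted p = 1.00), and 0.95 without that library, 4.05 without mechanoreceptor library 3 and 3.26 with the covariate. Mechanoreceptor over nociceptor libraries gave -0.08 ± 1.27 (adjusted p = 0.987), which ran from -1.91 without mechanoreceptor library 3 to 1.03 without nociceptor library 2 and was 0.31 with limma on log2(TPM + 1). RTL1, a retrotransposon-derived gene of the same cluster that is active in placenta and muscle, was at 3.40 TPM in proprioceptor library 2, 2.06 TPM in mechanoreceptor library 3 and 0.268 TPM or less elsewhere. DIO3, a thyroid hormone deiodinase at the far end of the cluster, was at 0.748 TPM or less in all 10 libraries.

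IGF2, the fetal insulin-like growth factor, was near or below the limit of on in most libraries. It is paternally expressed from chromosome 11:2129117-2149566, 128 kb from H19 and 734 kb from CDKN1C. IGF2 was at 0.0169, 0.384 and 0.0179 TPM in proprioceptor libraries 1 to 3, 0.0541, 0.291 and 0.724 TPM in mechanoreceptor libraries 1 to 3, and 0.487, 1.28, 3.09 and 0.0332 TPM in nociceptor libraries 1 to 4. Only nociceptor libraries 2 and 3 reached 1 TPM, and nociceptor library 4 lay among the lowest, so the protocols overlapped. These levels rest on 192 estimated counts in all, 2, 11 and 2 in proprioceptor, 1, 8 and 18 in mechanoreceptor and 23, 44, 80 and 3 in nociceptor libraries. Proprioceptor over nociceptor libraries gave a log2 fold change of -2.85 ± 1.20 (edgeR adjusted p = 0.665, unadjusted p = 0.0373), which became -3.998 without proprioceptor library 2, -1.99 without nociceptor library 3 and -0.79 with limma on log2(TPM + 1). Mechanoreceptor over nociceptor libraries gave -2.17 ± 1.14 (adjusted p = 0.612), which became -3.34 without mechanoreceptor library 3, -1.30 without nociceptor library 3 and -0.17 with log2 COL1A1 as a covariate. For proprioceptor over mechanoreceptor libraries it was -0.69 ± 1.23 (adjusted p = 1.00) and turned to 0.48 without mechanoreceptor library 3, against -1.80 without proprioceptor library 2.

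Genes of the insulin-like growth factor pathway varied widely in level. Of 18 other pathway genes tested, 3 were higher and 15 lower in proprioceptor than in nociceptor libraries, and the median log2 fold change was -0.99 against 0.03 for all tested genes, and 0 passed the edgeR test. Between mechanoreceptor and nociceptor libraries 2 were higher and 16 lower, with a median of -1.01 against 0.00 for all tested genes. The 15 tested mesenchymal genes leaned the same way, with 14 lower in proprioceptor than in nociceptor libraries (median -1.79). In mechanoreceptor libraries 13 of them were lower than in nociceptor libraries (median -1.78). IGFBP2, a secreted protein that binds both growth factors of the family, was at 28.5, 415 and 55.4 TPM in proprioceptor, 9.48, 13.7 and 344 TPM in mechanoreceptor, and 347, 653, 916 and 92.7 TPM in nociceptor libraries. IGFBP7 was between 5.47 and 261 TPM and IGFBP4 between 1.28 and 311 TPM. In the 5 libraries with the most COL1A1, IGFBP2 was at 344 TPM or more, against 92.7 TPM or less in the others. IGFBP4 was at 68.8 TPM or more in the same 5 and at 15.5 TPM or less in the others. IGFBP7 was at 78.6 TPM or more in those 5 and at 42.7 TPM or less in the others. For IGFBP3 these bounds were 3.72 and 3.17 TPM, and for IGFBP6 they were 4.38 and 3.57 TPM. PAPPA, IGF2BP3 and IRS1 also divided at this point, whereas IGFBP5, IGF2R and IGF1R did not. The part of cell make-up in these levels was not tested. IGFBP5 was between 3.62 and 145 TPM, IGFBP3 between 0.557 and 22.9 TPM and IGFBP6 between 0.647 and 27.0 TPM, while IGFBP1 was at 0.0916 TPM or less in all 10 libraries. IGF2R, the receptor that takes up IGF2 for breakdown, was between 5.50 and 31.0 TPM, and IGF1R, the signalling receptor, between 1.15 and 5.19 TPM.

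CDKN1C encodes p57, an inhibitor of cyclin-dependent kinases that is maternally expressed and restrains growth. It lies at chromosome 11:2883218-2885775. CDKN1C was at 12.6, 33.1 and 42.5 TPM in proprioceptor libraries 1 to 3, 9.41, 9.11 and 16.4 TPM in mechanoreceptor libraries 1 to 3, and 19.3, 23.6, 28.8 and 21.5 TPM in nociceptor libraries 1 to 4. All 3 mechanoreceptor libraries lay below all 4 nociceptor libraries, and proprioceptor libraries spanned most of the range. CDKN1C and SNRPN were the 2 tested imprinted genes whose mechanoreceptor and nociceptor libraries did not overlap in TPM, against 9.88% of all tested genes. For SNRPN the mechanoreceptor libraries were the higher, as for 8.05% of tested genes. Between proprioceptor and mechanoreceptor libraries 0 of the 7 were free of overlap, against 5.89%. The log2 fold change of CDKN1C was -1.03 ± 0.35 for mechanoreceptor over nociceptor libraries (edgeR adjusted p = 0.598, unadjusted p = 0.0138), and between -1.40 and -0.91 with each library left out in turn. It was 1.36 ± 0.37 for proprioceptor over mechanoreceptor libraries (adjusted p = 1.00, unadjusted p = 0.00394), and 0.33 ± 0.34 for proprioceptor over nociceptor libraries (adjusted p = 0.749), where it became 0.09 without proprioceptor library 3. Protocol accounted for 73.3% of its variance in log2 CPM, against a median of 21.3% over all tested genes. Transcripts of CDKN1C with a name in GENCODE v29 held 22.3 to 59.9% of the TPM of its gene entry, so part of the entry rests on sequences of the authors' index that were not matched here.

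The other cyclin-dependent kinase inhibitors differed among themselves. CDKN2D was at 106 to 360 TPM, CDKN2A, which encodes p16, was at 0.740 to 50.9 TPM, and CDKN1A, which encodes p21, a target of p53, was at 47.9 to 688 TPM. CDKN1A was at 267 TPM in proprioceptor library 2, 226 TPM in mechanoreceptor library 3 and 285, 688 and 650 TPM in nociceptor libraries 1 to 3, and at 77.2 TPM or less in the other 5 libraries. PHLDA2, a maternally expressed neighbour of CDKN1C that limits placental growth, was on in all 10 libraries at 44.2 to 157 TPM, while KCNQ1, a potassium channel gene of the same cluster, was at 1.42 TPM or less.

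PEG3 encodes a zinc finger protein that is paternally expressed and normally abundant in brain and placenta. It had 13 estimated counts in all 10 libraries together, 1, 0 and 7 in proprioceptor, 2, 1 and 0 in mechanoreceptor, and 0, 0, 2 and 0 in nociceptor libraries. The highest of these is 0.0321 TPM. Its neighbours ZIM2, which shares exons with PEG3, and USP29 were below 1 TPM in every library, with maxima of 0.491 and 0.899 TPM. Counts on PEG3 and ZIM2 can be divided between the pair by the quantification, and both were low.

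PEG10, a paternally expressed gene derived from a retrotransposon whose protein forms particle-like shells, lies at chromosome 7:94656325-94669695, 0.192 kb from SGCE. PEG10 was at 47.0, 132 and 102 TPM in proprioceptor libraries 1 to 3, 47.5, 67.5 and 153 TPM in mechanoreceptor libraries 1 to 3, and 23.8, 53.0, 66.4 and 64.5 TPM in nociceptor libraries 1 to 4. It was on throughout, and the protocols overlapped. Proprioceptor over nociceptor libraries gave a log2 fold change of 1.07 ± 0.56 (edgeR adjusted p = 0.665), and 0.62 without proprioceptor library 2. Mechanoreceptor over nociceptor libraries gave 1.03 ± 0.56 (adjusted p = 0.613), and 0.34 without mechanoreceptor library 3. Between proprioceptor and mechanoreceptor libraries it was 0.04 ± 0.60 (adjusted p = 1.00), and between -0.38 without proprioceptor library 2 and 0.71 without mechanoreceptor library 3. SGCE, which encodes a sarcoglycan and shares a bidirectional start region with PEG10, ran in another order, with 39.0, 86.3 and 83.4 TPM in proprioceptor, 87.7, 52.4 and 77.3 TPM in mechanoreceptor and 190, 111, 101 and 92.4 TPM in nociceptor libraries. Every nociceptor library lay above every other library on SGCE. Of all tested genes, 9.88% did not overlap between mechanoreceptor and nociceptor libraries and 2.94% between proprioceptor and nociceptor libraries. Protocol accounted for 83.8% of the variance of SGCE in log2 CPM, against a median of 21.3% over all tested genes. It was not called by edgeR in any contrast. In TPM, nociceptor library 1 had the lowest PEG10 and the highest SGCE of the 10. In log2 CPM it again had the lowest PEG10, at 5.80. SGCE, however, was highest in nociceptor library 3 on that scale, at 6.80 against 6.67 in nociceptor library 1.

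MEST, which encodes a protein of the alpha/beta hydrolase fold and is paternally expressed, lies at chromosome 7:130486175-130506465. MEST was at 44.5, 151 and 88.1 TPM in proprioceptor libraries 1 to 3, 62.7, 68.6 and 152 TPM in mechanoreceptor libraries 1 to 3, and 46.5, 119, 62.4 and 59.6 TPM in nociceptor libraries 1 to 4. Each protocol held a library above 118 TPM, and the protocols overlapped. Proprioceptor over nociceptor libraries gave a log2 fold change of 0.42 ± 0.44 (edgeR adjusted p = 0.750), 0.11 without proprioceptor library 2 and 0.82 without nociceptor library 2. For mechanoreceptor over nociceptor libraries it was 0.28 ± 0.44 (adjusted p = 0.867), turned to -0.33 without mechanoreceptor library 3 and was 0.67 without nociceptor library 2. For proprioceptor over mechanoreceptor libraries it was 0.15 ± 0.48 (adjusted p = 1.00), turned to -0.12 without proprioceptor library 2, was 0.73 without mechanoreceptor library 3 and was -0.0466 with limma on log2(TPM + 1). COPG2 and the non-coding MESTIT1 lie on the opposite strand of the MEST locus, and reads from overlapping stretches cannot be told apart without strand.

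MEST has several start sites, and it is known that transcripts from different starts can differ in whether they are imprinted. The windows of 300 bases at 3 of its starts, from RefSeq on GRCh38.p14, plus strand, are shown because RNA assigned to these starts was compared across the libraries. They lie at chr7:130485925-130486224 (upstream), chr7:130491079-130491378 (middle) and chr7:130491808-130492107 (downstream), each from 250 bases before to 50 bases from the start. Capitals mark the CG dinucleotides, the bases at which DNA methylation is placed.
MEST upstream: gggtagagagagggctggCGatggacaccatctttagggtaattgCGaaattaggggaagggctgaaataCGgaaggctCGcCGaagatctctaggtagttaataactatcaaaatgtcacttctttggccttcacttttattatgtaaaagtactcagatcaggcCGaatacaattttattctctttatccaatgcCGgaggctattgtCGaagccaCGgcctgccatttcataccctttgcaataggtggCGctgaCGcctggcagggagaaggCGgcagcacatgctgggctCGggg
MEST middle: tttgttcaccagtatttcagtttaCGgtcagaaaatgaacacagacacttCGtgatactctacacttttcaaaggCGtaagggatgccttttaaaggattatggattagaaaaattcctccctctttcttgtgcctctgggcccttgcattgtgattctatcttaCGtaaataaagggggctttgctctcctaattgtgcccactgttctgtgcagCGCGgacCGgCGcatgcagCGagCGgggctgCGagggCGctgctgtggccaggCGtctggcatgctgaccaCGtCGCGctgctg
MEST downstream: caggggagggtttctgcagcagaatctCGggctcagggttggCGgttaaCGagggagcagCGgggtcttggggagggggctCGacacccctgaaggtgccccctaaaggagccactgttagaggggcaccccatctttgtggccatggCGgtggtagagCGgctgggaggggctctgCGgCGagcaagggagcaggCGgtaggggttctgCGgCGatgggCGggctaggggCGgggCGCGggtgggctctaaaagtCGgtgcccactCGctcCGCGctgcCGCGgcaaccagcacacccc
The upstream window holds 13 CG dinucleotides, the middle 16 and the downstream 22. Of 35116 RefSeq windows of this length, 51.7% hold at least 13, 47.5% at least 16 and 37.7% at least 22, and the median is 14. The motif CG reads the same on both strands. DNA methylation was not measured.

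RNA from the middle and the downstream start spread over the libraries about equally, and that from the upstream start less. The 17 MEST transcripts matched to GENCODE v29 were grouped by where they begin. Transcripts of the middle start were at 5.07, 60.3 and 26.9 TPM in proprioceptor libraries 1 to 3, 4.22, 4.48 and 47.0 TPM in mechanoreceptor libraries 1 to 3, and 5.16, 39.3, 26.3 and 2.75 TPM in nociceptor libraries 1 to 4, a 21.9-fold range. In 5 libraries they were at 26.3 TPM or more and in the other 5 at 5.16 TPM or less. The transcript of the downstream start was at 11.4, 62.9 and 19.7 TPM in proprioceptor libraries 1 to 3, 3.51, 26.1 and 55.3 TPM in mechanoreceptor libraries 1 to 3, and 2.87, 27.9, 22.7 and 14.7 TPM in nociceptor libraries 1 to 4, also a 21.9-fold range. As a ratio of neighbouring values, it had no gap as wide as the 5.10-fold gap of the middle start, between 5.16 and 26.3 TPM. As a difference in TPM, its gap between 27.9 and 55.3 TPM was the wider. The transcript of the downstream start was below the middle start in 5 of the 10 libraries. A further 3 transcripts begin past the end of the downstream window, and together they were at 2.27 to 43.2 TPM. Transcripts of the upstream class, some of which begin past the upstream window, were at 4.22 to 21.5 TPM, a 5.09-fold range. The division among transcripts is kallisto's estimate and rests on reads that reach the first exons.

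The 5 libraries with the most middle-start MEST were also the 5 with the most DLK1, a match that was noticed after the values were seen. They were proprioceptor libraries 2 and 3, mechanoreceptor library 3 and nociceptor libraries 2 and 3, with DLK1 at 13.5 to 102 TPM against 0.798 to 5.71 TPM in the others. On the scale of log2 CPM, the division in DLK1 is narrow, with 3.80 in nociceptor library 3 next to 3.70 in proprioceptor library 1. Of these 5 libraries, 4 were also among the 5 with the most RNA from the downstream start, and 4 among the 5 with the most COL1A1. The upstream and later downstream classes did not divide with DLK1. Upstream RNA was at 21.5 TPM in mechanoreceptor library 1 and 4.22 TPM in nociceptor library 2, with DLK1 at 1.71 and 26.3 TPM. Later downstream RNA was at 31.8 TPM in nociceptor library 1 and 2.27 TPM in nociceptor library 3. The share of all genes or transcripts that match DLK1 in this way was not counted. Nociceptor library 1 had 392 TPM of COL1A1 with 0.798 TPM of DLK1 and 5.16 TPM of middle-start MEST. Proprioceptor library 3 had 7.81 TPM of COL1A1 with 102 TPM of DLK1 and 26.9 TPM of middle-start MEST.

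**Figure D3:**
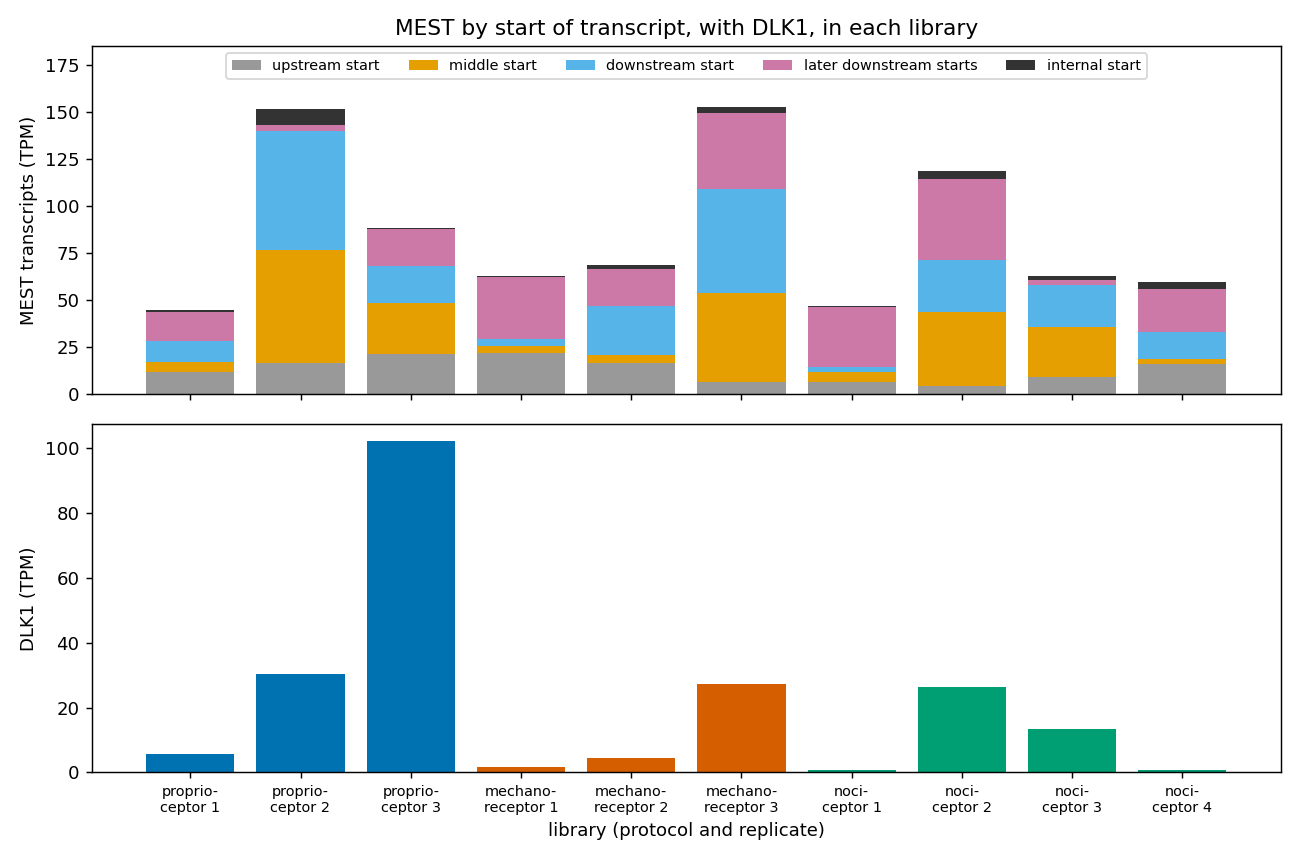
Upper bars give MEST transcripts in TPM per library, stacked by upstream (grey), middle (yellow), downstream (blue), later downstream (pink) and internal (black) start, and lower bars give DLK1 in TPM, with libraries from proprioceptor through mechanoreceptor to nociceptor. The yellow segment is tall, at 26.3 to 60.3 TPM, in the same 5 libraries in which DLK1 is at 13.5 TPM or more.

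SNRPN, whose protein SmN takes the place of SmB in the spliceosomes of neurons, was the most abundant of the 8 genes in every library. It is paternally expressed from chromosome 15:24823637-24978723, and its loss with that of its neighbours causes Prader-Willi syndrome. SNRPN was at 1037, 798 and 998 TPM in proprioceptor libraries 1 to 3, 800, 971 and 766 TPM in mechanoreceptor libraries 1 to 3, and 506, 532, 486 and 613 TPM in nociceptor libraries 1 to 4. All 6 proprioceptor and mechanoreceptor libraries lay above all 4 nociceptor libraries. The means were 944 ± 128 TPM in proprioceptor (SD, n = 3), 846 ± 110 TPM in mechanoreceptor (n = 3) and 534 ± 55.8 TPM in nociceptor libraries (n = 4). SNRPN was the 1 tested imprinted gene whose proprioceptor and nociceptor libraries did not overlap in TPM, against 2.94% of all tested genes. Proprioceptor over nociceptor libraries gave a log2 fold change of 1.09 ± 0.35 (edgeR adjusted p = 0.665, unadjusted p = 0.0104), 0.55 without proprioceptor library 1 and 0.76 with log2 COL1A1 as a covariate. For mechanoreceptor over nociceptor libraries it was 0.52 ± 0.35 (adjusted p = 0.655), and 0.22 with that covariate. For proprioceptor over mechanoreceptor libraries it was 0.57 ± 0.38 (adjusted p = 1.00), and 0.06 without proprioceptor library 1.

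Pan-neuronal markers leaned the same way as SNRPN. All 15 were higher in proprioceptor than in nociceptor libraries (median log2 fold change 0.81), and 14 of 15 were higher in mechanoreceptor than in nociceptor libraries (median 0.44), with 0 past the edgeR test. Their summed level was 14765 to 26187 TPM in proprioceptor, 14860 to 24838 TPM in mechanoreceptor and 8392 to 20495 TPM in nociceptor libraries. Their part in the SNRPN values was not tested. Set against STMN2, a stathmin of growing axons, the ratio of SNRPN to STMN2 in TPM was 0.165 to 0.267 in proprioceptor, 0.212 to 0.248 in mechanoreceptor and 0.145 to 0.302 in nociceptor libraries, so on this ratio the protocols overlapped. TAGLN3 and ALDOC were the tested genes most like SNRPN over the 10 libraries, with Pearson's r of log2 CPM of 0.988 and 0.976, given as a description of libraries that share their make-up of cells.

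Transcripts of SNRPN kept similar shares in all libraries. The window at its downstream start, chr15:24954737-24955036 in GRCh38.p14 on the plus strand, is shown because most SNRPN RNA began there and because this start lies in the imprinting control region of the cluster. Capitals mark the CG dinucleotides.
SNRPN downstream: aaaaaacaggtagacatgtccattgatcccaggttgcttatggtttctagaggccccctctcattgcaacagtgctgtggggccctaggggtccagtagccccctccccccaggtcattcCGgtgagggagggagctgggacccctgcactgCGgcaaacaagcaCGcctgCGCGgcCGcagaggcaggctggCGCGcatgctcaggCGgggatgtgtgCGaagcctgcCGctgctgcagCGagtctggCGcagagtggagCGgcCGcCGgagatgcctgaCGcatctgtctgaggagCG
It holds 18 CG dinucleotides, and 44.5% of all RefSeq windows hold at least as many. Transcripts of this start held 72.4 to 78.8% of the TPM assigned to named SNRPN transcripts, those of the middle start 16.2 to 22.4%, and those of the far upstream start 3.45 to 7.17%. SNURF, read from the same RNA as SNRPN, was listed at 5.25 to 22.9 TPM, and how the quantification divides reads between the pair bears on both levels.

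NDN, a neighbour of SNRPN that promotes the exit of neurons from the cell cycle, varied little, at 159 to 232 TPM over the 10 libraries. MAGEL2 was at 2.30 to 8.22 TPM, and UBE3A, maternally expressed in neurons, at 65.0 to 161 TPM. SNRPB, which encodes the SmB protein that SmN replaces, was at 91.4 to 193 TPM. The ratio of SNRPN to SNRPB was 6.06 to 10.4 in proprioceptor, 5.35 to 6.80 in mechanoreceptor and 2.51 to 5.53 in nociceptor libraries. The proprioceptor libraries lay above the nociceptor libraries on this ratio, and the mechanoreceptor libraries overlapped both. Of the Sm core genes, SNRPD2 was at 439 to 1527 TPM, SNRPE at 180 to 918 TPM and SNRPG at 230 to 552 TPM. Of 7 genes of the Sm core, 6 were higher and 1 lower in proprioceptor than in nociceptor libraries and 0 were higher and 7 lower in mechanoreceptor than in nociceptor libraries, with median log2 fold changes of 0.24 and -0.30 and 0 past the edgeR test.

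NNAT, a small membrane protein of the endoplasmic reticulum that is abundant in developing neurons, is paternally expressed from chromosome 20:37521250-37523690, inside an intron of BLCAP. NNAT was at 468, 310 and 141 TPM in proprioceptor libraries 1 to 3, 91.3, 484 and 465 TPM in mechanoreceptor libraries 1 to 3, and 39.4, 421, 207 and 79.3 TPM in nociceptor libraries 1 to 4. High and low libraries occurred in every protocol. Its within-protocol standard deviation, 1.49 on the log2 scale, was larger than that of 92.3% of tested genes. Proprioceptor over nociceptor libraries gave a log2 fold change of 1.07 ± 0.88 (edgeR adjusted p = 0.698), -0.0013 without proprioceptor library 1 and 1.89 without nociceptor library 2. For mechanoreceptor over nociceptor libraries it was 0.75 ± 0.88 (adjusted p = 0.808), 0.37 without nociceptor library 1 and 1.56 without nociceptor library 2. For proprioceptor over mechanoreceptor libraries it was 0.32 ± 0.95 (adjusted p = 1.00), turned to -0.70 without proprioceptor library 1 and was -0.0044 with limma on log2(TPM + 1). BLCAP, which shares a strand-opposed locus with NNAT, was at 102 to 362 TPM. The transcripts of NNAT with 3 exons held 40.5 to 52.5% of its TPM, so the balance of its splice forms moved far less than its level.

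COL1A1 did not give 1 order to the imprinted genes. Its values fell into 5 libraries at 17.0 TPM or less and 5 at 366 TPM or more, with a 21.6-fold gap between them, so no correlation over all 10 libraries was computed. IGF2 was at 0.384 to 3.09 TPM in the 5 libraries with the most COL1A1 and at 0.0169 to 0.291 TPM in the other 5. The nearest values of these ranges, 0.384 TPM in proprioceptor library 2 and 0.291 TPM in mechanoreceptor library 2, rest on 11 and 8 estimated counts. Such a division was not particular to IGF2. CPA4 was at 4.31 TPM or more in the same 5 libraries and at 1.93 TPM or less in the others. KCNQ1 was at 0.338 TPM or more and at 0.298 TPM or less. The share of all genes that divide in this way was not counted. DLK1 was at 0.798 to 30.3 TPM in the 5 with the most COL1A1 and at 0.833 to 102 TPM in the others. SNRPN was at 486 to 798 TPM and at 613 to 1037 TPM, PEG10 at 23.8 to 153 TPM and at 47.0 to 102 TPM, MEST at 46.5 to 152 TPM and at 44.5 to 88.1 TPM, and NNAT at 39.4 to 465 TPM and at 79.3 to 484 TPM in the same order. In that order, CDKN1C was at 16.4 to 33.1 TPM and at 9.11 to 42.5 TPM. PEG3 was at 0 to 0.0145 TPM and at 0 to 0.0321 TPM. These sets of libraries were formed from a measured value and are not groups of the study, so no test was made between them, and the sum of the 12 glial genes was 2190 to 5554 TPM in the 5 with the most COL1A1 and 199 to 1011 TPM in the others. Their part in the IGF2 values was not tested.

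**Figure D4:**
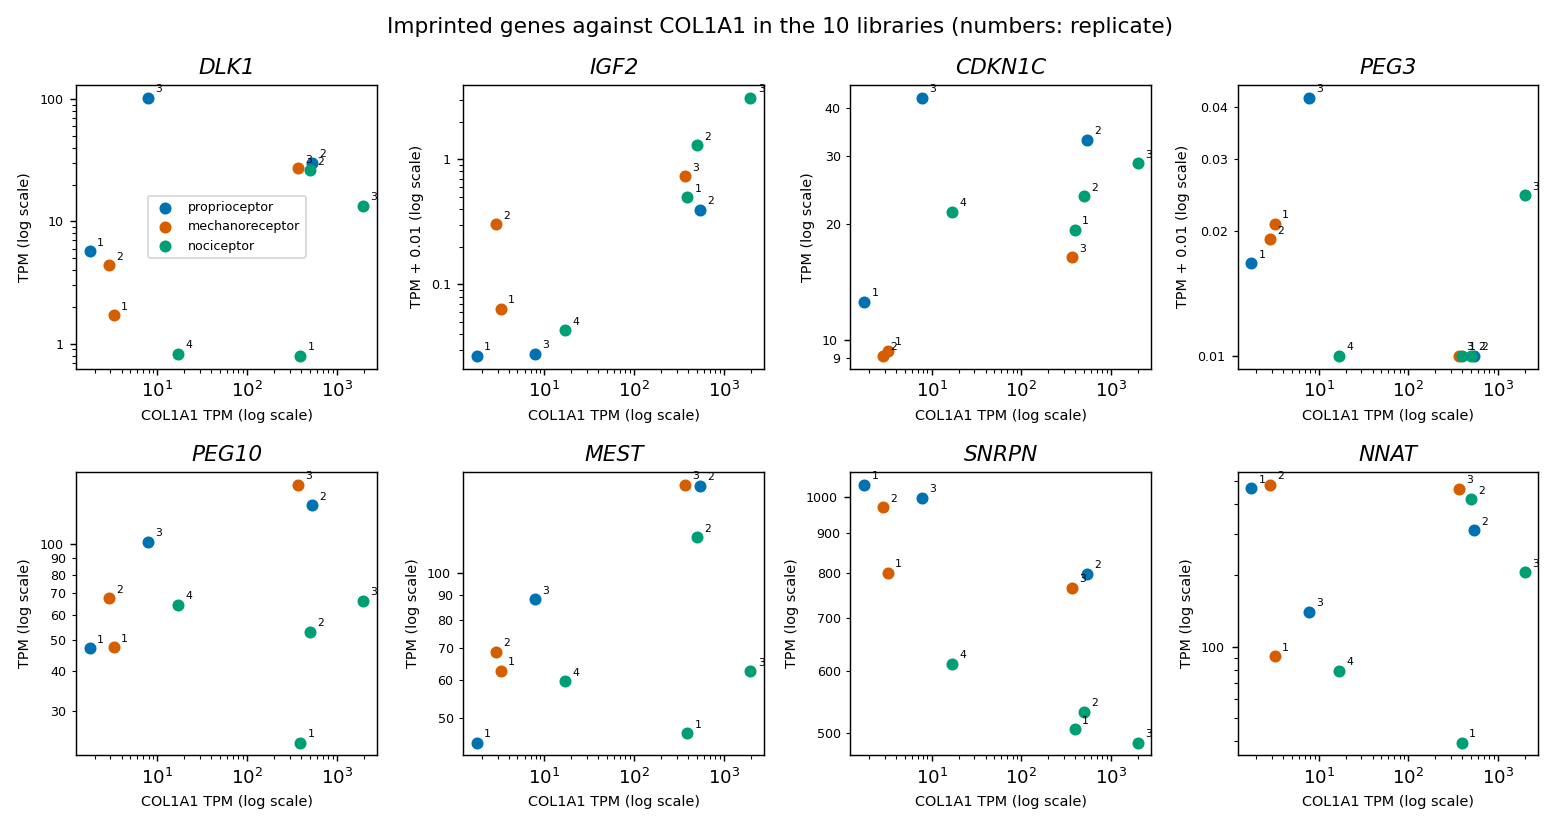
Level of each quantified imprinted gene in TPM (IGF2 and PEG3 as TPM plus 0.01) against COL1A1 in TPM, both on log axes, with 1 numbered point per library in the proprioceptor (blue), mechanoreceptor (orange) and nociceptor (green) protocols. IGF2 is at 0.384 TPM or more in all 5 libraries on the right, while DLK1 is both at its lowest, 0.798 TPM, and at up to 30.3 TPM there.

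Other imprinted genes, from a list of 38 of which 25 were tested, gave 0 calls by edgeR in each contrast. In proprioceptor over nociceptor libraries 14 were higher and 11 lower and the median log2 fold change was 0.10, against 0.03 for all tested genes, and for the 7 tested genes named at the start the numbers were 6 higher and 1 lower with a median of 1.07. In mechanoreceptor over nociceptor libraries the list gave 15 higher and 10 lower with a median of 0.08, and the 7 genes 4 higher and 3 lower with a median of 0.28. In proprioceptor over mechanoreceptor libraries the list gave 14 higher and 11 lower with a median of 0.08, and the 7 genes 6 higher and 1 lower with a median of 0.32, against 0.04 for all tested genes. These contrasts share libraries. CPA4, a carboxypeptidase gene near MEST, had the widest range of the list on the log2(TPM + 1) scale, with 0.174 TPM in proprioceptor library 3 and 18.0 TPM in nociceptor library 2. ZDBF2 was at 1.44 to 11.8 TPM, L3MBTL1, a reader of histone methylation, at 2.12 to 13.98 TPM, and PLAGL1, a zinc finger regulator of growth, at 0.546 to 6.28 TPM. Of the genes that maintain imprints, TRIM28, the corepressor recruited by zinc finger proteins to imprinted regions, was at 53.7 to 145 TPM. DNMT1, which copies DNA methylation at replication, was at 16.2 to 40.3 TPM, and CTCF, which insulates the unmethylated control region of IGF2 and H19, at 12.7 to 27.2 TPM. These are the 3 highest of a list of 12. Others were lower, with 1 estimated count of ZFP57 in all 10 libraries together and UHRF1 at 0.159 to 17.0 TPM. From 5 (proprioceptor library 1) to 10 (nociceptor library 1) of the 12 were at 1 TPM or more. Of the 10 tested maintenance genes, 0 passed the edgeR test in any contrast.

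The tested genes with the level most like each imprinted gene, by Pearson's r of log2 CPM over 10 libraries, lay outside the set of 10. They were CA12 and BRS3 for DLK1 (0.928 and 0.907), CERS2 and CTSD for IGF2 (0.972 and 0.970), IGF1 and EFNA1 for CDKN1C (0.926 and 0.925), and SIN3B and CNGB1 for PEG10 (0.963 and 0.952). For MEST they were GPRC5B and PRND (0.934 and 0.915) and for NNAT they were CRCP and AP2M1 (0.943 for each). CTSD, a lysosomal protease, was at 129 to 729 TPM, and BRS3, a receptor of the bombesin family, at 0.0738 to 8.14 TPM. With 16130 genes to choose from and 10 libraries that share their differences in cell make-up, values of this size are a description of these libraries alone.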

How the data were processed

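Bulk RNA-seq of 10 libraries (3 proprioceptor, 3 mechanoreceptor, 4 nociceptor, grouped by title) was used. Trizol extraction, Clontech Ultra Low v4 cDNA synthesis, NexteraXT library preparation and paired 75 nt reads are given per the labels' protocols. Per the submitters' processing notes, kallisto 0.50.1 and GRCh38.p14 were used. The deposited estimated counts were whole numbers, so the authors had rounded them before deposit. TPM values per gene and per transcript were also deposited by the authors. Whether strand was used in counting is not given in the sources used here, so opposite-strand genes may share reads.

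The imprinted genes and all gene lists were chosen with earlier results of these data known. An entry without a gene name held 0.733 to 1.66% of counts and 2.81 to 8.80% of TPM and was left out of totals and tests. Counts were tested with edgeR 4.0.16 (quasi-likelihood, TMM, filterByExpr, a mean per protocol, R 4.3.3), with Benjamini-Hochberg adjustment over 16130 genes and a threshold of 0.05. The standard error is the log2 fold change divided by the square root of F. The common biological coefficient of variation was 0.55. The test was tried on simulated data first. Alternatives were DESeq2 1.42.0, its size factors, no filter, limma 3.58.1 on log2(TPM + 1) and log2(TPM + 0.1), log2 COL1A1 as a covariate, the replicate number as a block, and each library left out. Depth was 27891186 to 44541262 counts, and no pair of libraries of the same protocol agreed within sampling noise. Transcript names came from GENCODE v29, and gene positions and windows from RefSeq. MEST has 5 and SNRPN 4 windows in that table. Named genes were all 10 members, the 2 most alike genes of each, imprinted neighbours, the 5 other imprinted genes with the widest range, the 3 highest by mean TPM of each pathway list, the first gene of each cell type list, and SNRPB. IGF1R, IGF2R, STMN2, TNNT1, TTN, DPPA4, THY1, NGFR, ZFP57, UHRF1, IGFBP1, IGFBP3, IGFBP5, IGFBP6, PAPPA, IGF2BP3 and IRS1 are named outside that rule, after their values were seen.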

Additional observations from a re-analysis of the deposited data

Results flagged for a closer look

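Dixon's criterion was applied to the 8 quantified genes in the nociceptor libraries, the group with 4 libraries, and 1 value stood apart. PEG3 in the nociceptor libraries had 2 estimated counts in library 3 and 0 in libraries 1, 2 and 4, so the gap to the nearest library was the whole range, a ratio of 1.0. This rests on 2 counts. With libraries 1, 2 and 4 at 0, any count in library 3 gives a ratio of 1.0, so the flag says nothing about the level of PEG3. For continuous values chance flags about 1 in 20 groups, and 8 genes were looked at.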

How the results depend on the processing

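The 7 tested imprinted genes in 3 contrasts gave 21 log2 fold changes. Under the alternatives these gave 357 further values, of which 334 kept their direction, 23 reversed and 0 were called. Over all genes, edgeR called 0 in each contrast, while DESeq2 called 130 between mechanoreceptor and nociceptor libraries (16 higher, 114 lower) and 31 between proprioceptor and nociceptor libraries (12 higher, 19 lower). The cause was not tested. The DLK1 value for mechanoreceptor over nociceptor libraries reversed to 0.31 and 0.54 with limma on log2(TPM + 1) and log2(TPM + 0.1) and to 1.27 with log2 COL1A1 as a covariate. For proprioceptor over mechanoreceptor libraries, limma turned MEST to -0.0466 and -0.0480 (pseudocounts 1 and 0.1), and NNAT to -0.0044 and -0.0033. On these scales the median over all genes was 0.113 and 0.154 between mechanoreceptor and nociceptor libraries and -0.182 and -0.253 between proprioceptor and mechanoreceptor libraries. Leaving out each library gave -1.91 to 1.03 for DLK1 (mechanoreceptor over nociceptor) and -0.33 to 0.67 for MEST in that contrast, and -0.0013 to 1.89 for NNAT in proprioceptor over nociceptor libraries. In proprioceptor over mechanoreceptor libraries it gave -1.80 to 0.48 for IGF2, -0.38 to 0.71 for PEG10, -0.12 to 0.73 for MEST and -0.70 to 0.74 for NNAT. The number of gene and library pairs on was 63, 58 and 56 at thresholds of 0.5, 2 and 5 TPM, and 65 at 10 estimated counts. Replicate numbers are shared across protocols. Of 9 same-numbered pairs 4 had a correlation over 0.1 (range -0.633 to 0.49), and 1 of 9 libraries correlated best with its own number. The check used deviations from protocol means of 3 or 4 libraries that differ widely in cell make-up. It therefore cannot tell whether same-numbered libraries belong together. With the replicate number as a block, 0 of the imprinted genes and 0 of all genes were called. Number 4 occurs only in the nociceptor protocol, so nociceptor library 4 adds nothing to the contrasts of that fit. The block terms also leave fewer degrees of freedom for the spread. Depth limits PEG3 and IGF2, with 13 and 192 estimated counts in all.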
